A study of Mus musculus with 12 samples.

Results

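The cytoplasmic ribosomal protein mRNAs were followed across somas and neurites of cultured mouse hippocampal neurons, with and without inhibition of the proteasome. Members were taken by symbol: protein-coding genes whose whole symbol is Rpl or Rps, a number, and optionally a single letter a, x or l and further digits. Symbols with other endings, such as Rpl36al and Rps6kb1, were thus not members. The stalk genes Rplp0, Rplp1 and Rplp2 and the 40S gene Rpsa were added. Rps27a, whose product is made as a fusion to ubiquitin, was left out. The rule found 83 of the 27179 genes counted, of which 30 encode proteins of the small (40S) subunit, 46 encode proteins of the large (60S) subunit and 7 are paralogs (Rpl3l, Rpl7l1, Rpl10l, Rpl22l1, Rpl32l, Rpl39l and Rps27l). Of these, 74 had enough counts to be tested.

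The 12 libraries were poly(A)-selected RNA of primary hippocampal neurons from newborn mice, labelled C57BL/6 (the study's methods also name FVB mice for its cultures), kept to day in vitro 17 or 18 (DIV17/18) on porous Transwell membranes, through which neurites grow while cell bodies stay on the upper face. Ctrl cultures received the vehicle DMSO, and MG132 cultures received the proteasome inhibitor MG132 at 10 µM for 7 h. Somas and neurites were collected separately, which gave Ctrl soma, Ctrl neurites, MG132 soma and MG132 neurites, with 3 libraries in each. Library totals ran from 4247610 to 22166347 counts, the lowest in replicate 2 of MG132 soma and the highest in replicate 2 of MG132 neurites. The labels do not say that replicates came from separate cultures, so the p-values measure the spread between these libraries, which may be technical.

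Ribosomal proteins assemble with ribosomal RNA in the nucleolus, and a growing cell makes the proteins of both subunits in matched amounts. Surplus ribosomal protein that finds no partner is degraded by the proteasome. Their mRNAs begin with a terminal oligopyrimidine (TOP) tract, a C at the first base followed by a run of C and U, through which mTORC1 and LARP1 set their translation and stability together. In neurons these mRNAs have long been known as residents of axons and dendrites, where newly made proteins can join existing ribosomes.

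Start sites of 64 members, 76 starts in all, were found in RefSeq (GRCm38.p6). The sequences below show what a run of pyrimidines at the start looks like. They were picked by hand after the sequences were seen, for their runs, and most starts of the family hold no run as long, while Rpl7l1 is shown as a paralog that lacks the run. Each holds 30 bases in transcript sense, 10 before the annotated start and 20 from it, with the longest run of C and T in capitals.
Rpl15 (chr14:18270967-18270996, minus strand): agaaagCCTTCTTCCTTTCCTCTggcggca
Rpl27a (chr7:109519185-109519214, plus strand): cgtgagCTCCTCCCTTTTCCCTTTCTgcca
Rpl35 (chr2:39005112-39005141, minus strand): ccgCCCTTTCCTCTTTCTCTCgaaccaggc
Rplp2 (chr7:141447641-141447670, plus strand): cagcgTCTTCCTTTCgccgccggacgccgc
Rps10 (chr17:27635225-27635254, minus strand): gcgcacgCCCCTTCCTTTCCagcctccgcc
Rps18 (chr17:33955646-33955675, minus strand): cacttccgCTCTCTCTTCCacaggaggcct
Rpl22l1 (chr3:28805498-28805527, plus strand): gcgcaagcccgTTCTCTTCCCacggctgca
Rpl7l1 (chr17:46782637-46782666, minus strand): gCTgcgcaagcgcagtagctgaagcaccgg

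A C at the annotated start followed by at least 4 pyrimidines was present at 14 of the 76 starts of ribosomal protein genes (18.4%), against 2.51% of the 32851 starts in the table and 0 of 75 starts of mitochondrial ribosomal protein genes, whose products belong to a separate ribosome. A run of at least 8 pyrimidines within 15 bases of the start was present at 38.2% of the starts, against 12% of all starts. The letters CTTTCC, read in transcript sense within the same distance, were present at 13.2% against 1.42%. On either strand of the 300 bases around the start they were present at 48.7% against 26.6%. Annotated starts can lie some bases away from the base that is used, and these matches describe letters only.

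Counts on the family were low. Together the 83 genes held 0.138% to 0.160% of the counts of Ctrl somas, 0.221% to 0.430% in Ctrl neurites, 0.178% to 0.234% in MG132 somas and 0.216% to 0.396% in MG132 neurites. The exact binomial 95% intervals of these shares, which cover counting error only, were narrow (0.158% to 0.163% for replicate 1 of Ctrl soma). The mean over the 12 libraries reached 10 CPM (the count of a gene over the library total, scaled by the TMM factors of edgeR) for 45 members and stayed under 1 CPM for 12. Rpl4 and Rpl8, which lie at the exit tunnel and the catalytic core of the large subunit, and Rps3, at the mRNA entry of the small subunit, together took 23.9% of all reads on the family, and the 20 most counted genes took 71.4%.

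Members with over 75% of their sequence shared with other genes had a low median counted level. Mouse ribosomal protein genes have many processed pseudogenes, and a read that maps to several places is dropped at the default setting of featureCounts. For the 82 members with a transcript in GENCODE M21, the share of 75-base windows that also occurred in a transcript of another gene ran from 0% to 98.5%, with a median of 45.9%, and was over 50% in 38. The median level per kilobase of transcript was 31.0 CPM for the 20 members with under 25% of their windows shared, 16.2 CPM for the 24 with 25% to 50%, 21.2 CPM for the 20 with 50% to 75% and 3.16 CPM for the 18 with over 75%, so that the level did not fall step by step. Counted per kilobase of windows of their own, the medians were 41.0, 30.9, 57.9 and 39.4 CPM. Rpl32 (175 CPM per kb, 5.87% shared), Rpl8 (171 CPM per kb, 4.89% shared), Rps15 (164 CPM per kb, 16.9% shared) and Rpl4 (164 CPM per kb, 8.47% shared) stood highest. At the other end, Rpl5, which carries 5S RNA into the large subunit, stood at 0.673 CPM per kb with 92.5% of its windows shared. Low levels were not limited to such genes, since Rpl39, with 7.62% shared, had at most 3 counts in any library, and Rps16, Rps29 and Rpl28, each with under 50% shared, stood at 0.868, 0.946 and 0.429 CPM per kb. How far shared windows set the counted levels was not tested, so these levels were not read as the order of mRNA abundance among the members.

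**Figure D1:**
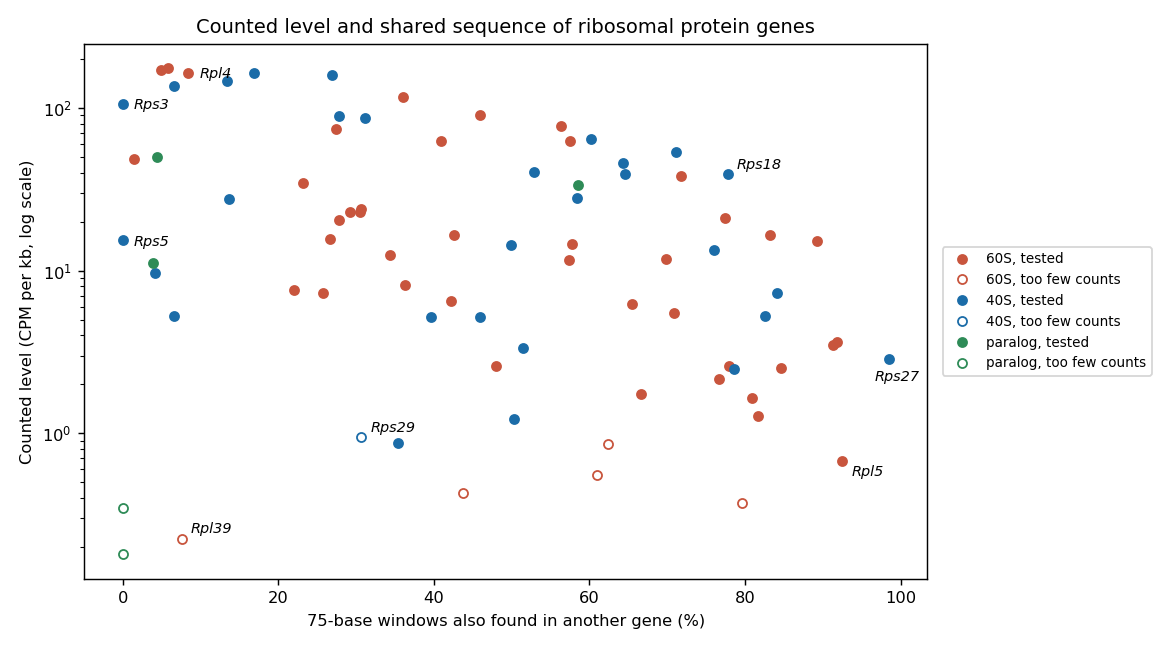
Each point is a ribosomal protein gene, placed by the percent of its 75-base windows that also occur in another gene (x axis) and by its mean counted level over 12 libraries in CPM per kb (y axis, log scale), with open points for genes that had too few counts to be tested. Genes with over 75% of their windows shared have a median of 3.16 CPM per kb against 31.0 CPM per kb for those under 25%, and Rpl10l, without a count, and Rpl32l, without a matched transcript, are left out.

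The 9 genes without enough counts were Rpl11, Rpl13, Rpl27, Rpl28, Rpl39 and Rps29 and the paralogs Rpl3l, Rpl10l and Rpl39l. Their highest count in any library was 25, and Rpl10l had 0 counts in all 12. Rpl3l and Rpl10l are known as the muscle and testis counterparts of Rpl3 and Rpl10. The 34 pseudogenes that carry a member's symbol held 1849 counts in the 12 libraries, against 298134 counts on the members, so few reads had gone to named copies. Exons of 20 members overlapped another gene, 17 of them on the opposite strand, and the counting did not use strand.

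The first comparison asked how the mRNAs were divided between somas and neurites of untreated neurons. Ribosomal protein mRNAs were higher in neurites. The summed level of the family was 1112, 1040 and 1243 CPM in the 3 Ctrl soma libraries and 3358, 3186 and 4906 CPM in the Ctrl neurites libraries, so the groups did not overlap. Of the 74 genes tested, 52 were higher in neurites (edgeR quasi-likelihood test, Benjamini-Hochberg adjusted p under 0.05, all genes in 1 fit) and 0 were lower, against 10.2% of all genes called higher and 4.65% called lower. The median log2 ratio of neurites to somas was 1.68 for the family, a 3.21-fold difference, and −0.04 over all genes. Both subunits took part, with 22 of 29 genes of the 40S subunit (median 1.76) and 27 of 41 genes of the 60S subunit (median 1.64) higher. In bulk RNA, a change in the amount of one cell type and a change in RNA per cell cannot be told apart.

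**Figure D2:**
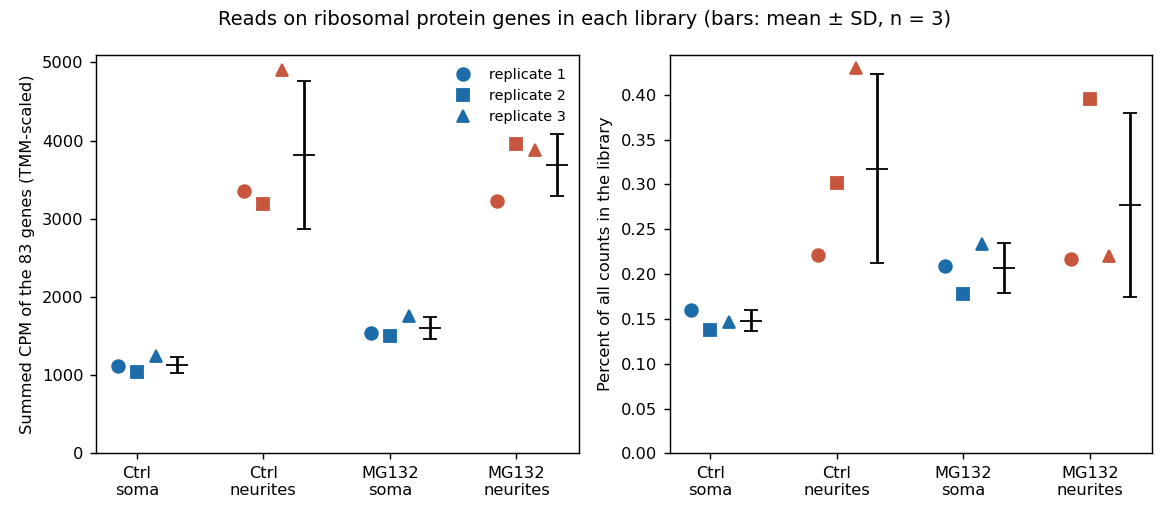
Reads on the 83 ribosomal protein genes in each library, as the sum of TMM-scaled CPM (left) and as percent of all counts (right), with one symbol per replicate number, somas in blue, neurites in red, and each group's mean ± SD (n = 3) in black. On the left every neurites library (3186 to 4906 CPM) lies above every soma library (1040 to 1762 CPM), and on the right replicates 1 and 3 of MG132 neurites (0.216% and 0.220%) lie within the range of MG132 somas (0.178% to 0.234%).

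Rps20, a protein of the head of the small subunit, had the highest ratio. Its level was 4.76, 3.66 and 5.40 CPM in Ctrl somas and 27.5, 24.8 and 45.5 CPM in Ctrl neurites, a log2 ratio of 2.82 ± 0.40 (SE, adjusted p = 1.7e-04). The neurites libraries were all above the somas, with replicate 3 the highest. Rpl26, which lies near the exit of the peptide tunnel, measured 10.0, 9.97 and 9.59 CPM in Ctrl somas and 60.5, 43.8 and 73.4 CPM in Ctrl neurites (log2 ratio 2.58 ± 0.24, adjusted p = 4.3e-06). Rps28, at the mRNA exit of the small subunit, was counted at 8, 2 and 10 reads in Ctrl somas and 14, 22 and 25 reads in Ctrl neurites (log2 ratio 2.44 ± 0.74, adjusted p = 0.0379), so its large ratio rests on few reads. The most counted gene, Rpl4, measured 117, 103 and 135 CPM in Ctrl somas and 231, 277 and 417 CPM in Ctrl neurites (log2 ratio 1.38 ± 0.21, adjusted p = 3.6e-04).

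The stalk proteins, which recruit the elongation factors to the large subunit, all had higher mRNA levels in neurites. Rplp0 measured 40.4, 30.8 and 48.3 CPM in Ctrl somas and 112, 128 and 198 CPM in Ctrl neurites (log2 ratio 1.88 ± 0.24). The acidic stalk proteins Rplp1 and Rplp2 had log2 ratios of 2.30 ± 0.25 and 1.45 ± 0.23. Rpsa, the 40S protein also known as the laminin receptor precursor, had 1.99 ± 0.39. All 4 passed the edgeR test, with the largest adjusted p at 0.00246 for Rpsa.

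No member was called lower in Ctrl neurites. The lowest ratios belonged to Rpl5 (−1.25 ± 1.15, adjusted p = 0.536), to Rpl12 at the base of the stalk (−0.74 ± 0.86, adjusted p = 0.640) and to Rpl10a of the L1 stalk (−0.50 ± 0.84, adjusted p = 0.764). Their means over the 12 libraries were 1.38, 3.21 and 1.80 CPM, with 92.5%, 47.9% and 76.7% of their windows shared, and the exons of each overlap a gene on the opposite strand. Among the 45 members with a mean of at least 10 CPM, 44 were called higher, and Rpl7l1 was the one that was not.

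Paralogs are set beside the genes they resemble as values, and the differences between genes were not tested. Rpl7l1, whose yeast relative acts in assembly of the large subunit, measured 19.4, 24.4 and 17.5 CPM in Ctrl somas and 21.1, 21.9 and 24.7 CPM in Ctrl neurites (log2 ratio 0.15 ± 0.25, adjusted p = 0.773). Rpl7 itself had a log2 ratio of 1.64 ± 0.20, from 33.9, 34.8 and 36.4 CPM in somas to 99.4, 89.8 and 139 CPM in neurites. The soma and neurite libraries overlapped for Rpl7l1 and did not for Rpl7. Rps27l had 0.95 ± 0.24 (adjusted p = 0.0149), and its partner Rps27 was counted at 14 reads or fewer in every Ctrl library, with 98.5% of its windows shared. Rpl22 and Rpl22l1, RNA-binding proteins of the large subunit, had similar ratios of 1.64 ± 0.21 and 1.42 ± 0.33.

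After MG132 the mRNAs were still higher in neurites than in somas. The summed level was 1535, 1500 and 1762 CPM in MG132 somas and 3228, 3959 and 3877 CPM in MG132 neurites, again without overlap. Of the 74 genes, 41 were higher in neurites and 0 were lower, against 11.4% and 6.35% of all genes, and the median log2 ratio was 1.20 for the family and −0.08 over all genes. Higher calls were made for 19 of 29 genes of the 40S subunit and 20 of 41 genes of the 60S subunit. The highest ratios belonged to Rps21 (1.89 ± 0.40, adjusted p = 0.00410), Rps20 (1.87 ± 0.38, adjusted p = 0.00320) and Rpl36 (1.72 ± 0.95, not called). The lowest belonged to Rpl5 (−1.60 ± 1.07), Rps13 (−0.53 ± 1.07) and Rpl9, of which none was called.

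**Figure D3:**
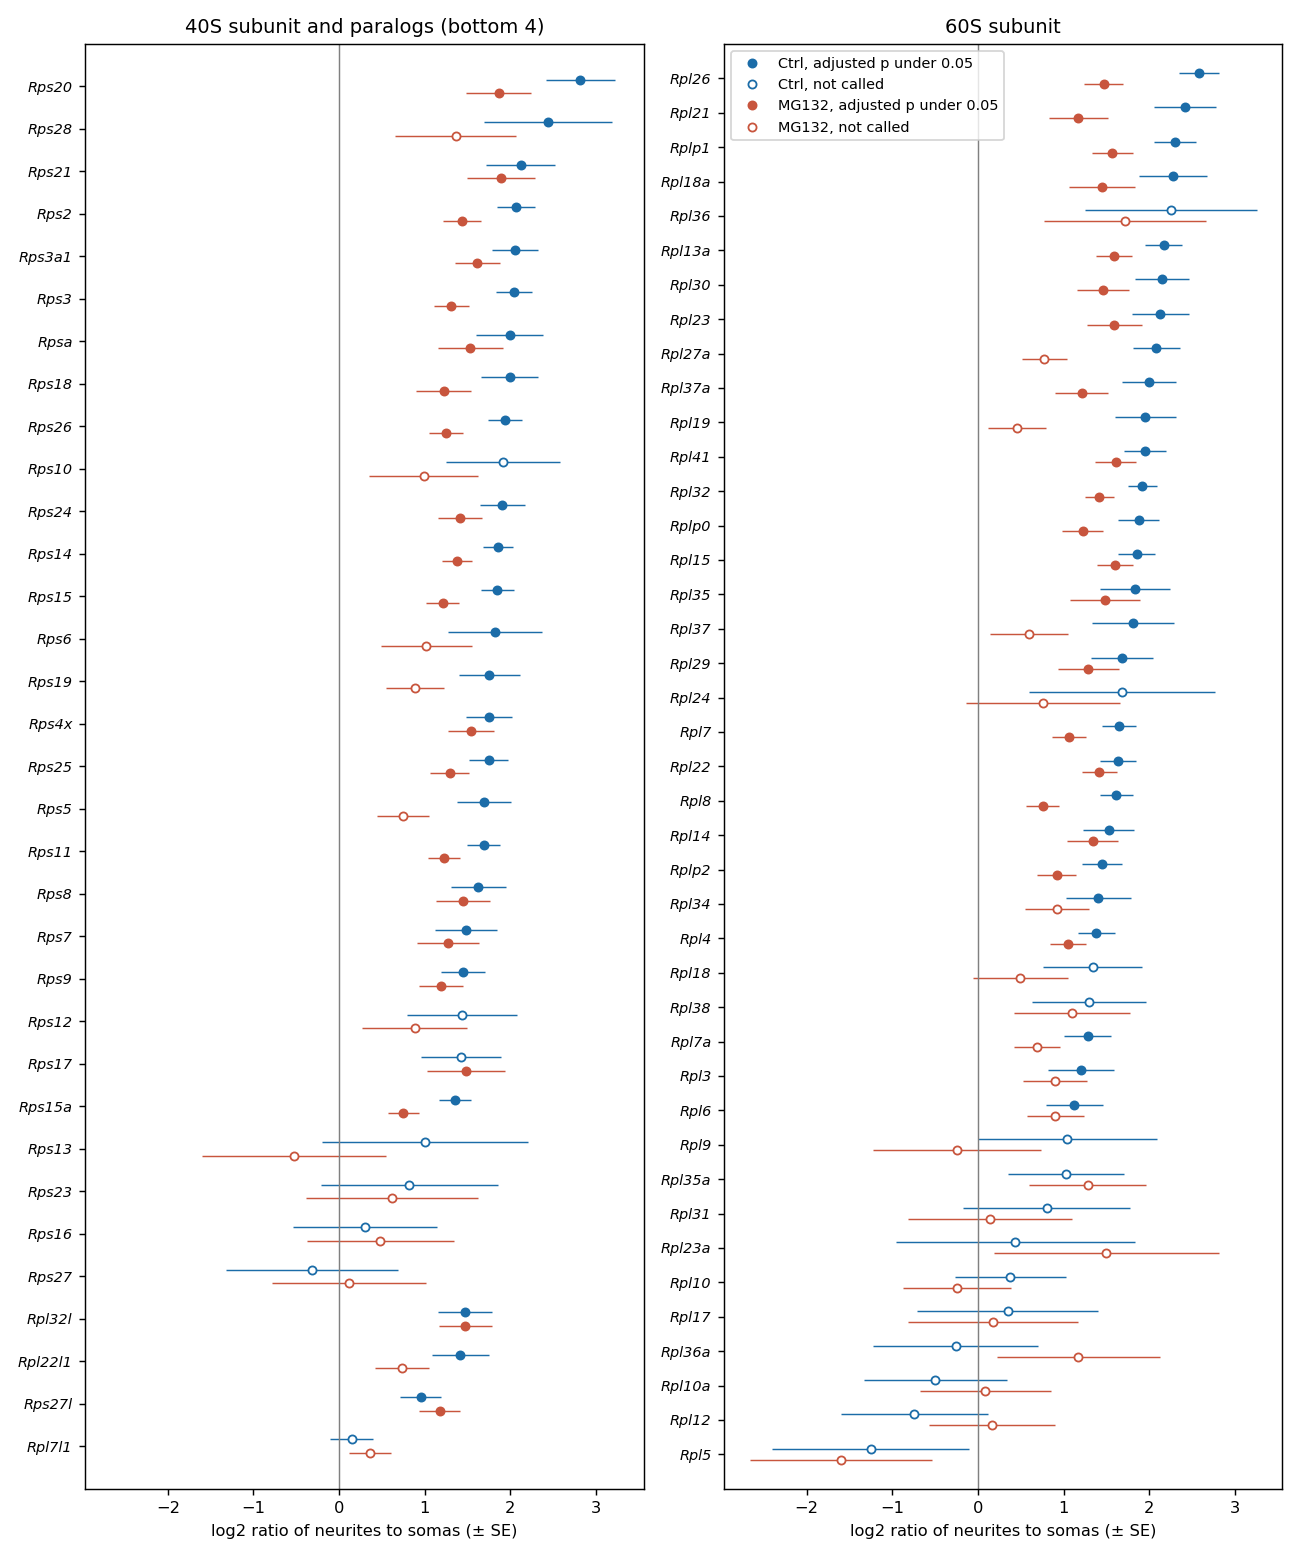
Log2 ratio of neurites to somas (± SE) of each of the 74 tested genes in Ctrl (blue) and MG132 (red) neurons, with 40S genes and paralogs on the left and 60S genes on the right, filled where the edgeR adjusted p was under 0.05. Filled points all lie right of 0 (52 in Ctrl and 41 in MG132), and the points left of 0 have long error bars.

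The libraries of the groups did not overlap, with neurites above, for 55 of 74 genes in Ctrl neurons and 52 in MG132 neurons, against 17.8% and 18.9% of all genes, and for 0 genes with neurites below, against 15.9% and 17.9%. Of the 52 calls in Ctrl neurons, 43 were kept whichever of the 6 libraries was left out, and of the 41 calls after MG132, 31 were kept. Neurite libraries had TMM factors of 0.567 to 0.999 and somas of 1.18 to 1.44, so the scaling bears on this comparison. On total counts the median ratio of all genes fell to −0.70 in Ctrl and −0.86 in MG132 neurons, and 29 and 1 of the 74 genes were called higher (2.28% and 2.11% of all genes). A scaling moves all genes alike, so the distance of the family's median from that of all genes (1.72 in Ctrl and 1.28 in MG132 neurons) cannot tell the scalings apart.

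Markers of other cells and compartments also differed between the fractions. All 8 neuron markers were counted in every library. Of them, 1 was higher (Map2, 0.95) and 1 lower (Syt1, −1.29) in Ctrl neurites, beside 10.2% of all genes called higher and 4.65% called lower. With the replicate block 1 neuron marker was higher, beside 13.7% of all genes called higher. In that fit 2 were lower, but the share of all genes called lower was not computed. The count of lower markers there is thus not a result about this list. Of the 8 astrocyte markers, 4 were higher and 1 was lower, and none was at 0 in any library. Their summed level was 5240, 5903 and 4728 CPM in Ctrl somas, 21276, 26022 and 20893 CPM in Ctrl neurites, 2651, 3251 and 2480 CPM in MG132 somas and 12271, 19862 and 9686 CPM in MG132 neurites. Gfap, the filament protein of astrocytes, was the most abundant of these markers and alone reached 15589 to 21576 CPM in Ctrl neurites. Cultures thus held astrocyte RNA in both fractions. In Ctrl cultures 5 of the 8 log2 ratios of neurites to somas were positive, Gfap and S100b among them. Gja1 had means of 153 CPM in Ctrl somas and 72.5 CPM in Ctrl neurites. Aqp4 (428 and 369 CPM) and Slc1a3 (1021 and 956 CPM) also had lower means in Ctrl neurites.

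The 9 oligodendrocyte lineage markers summed to 3348, 1608 and 6734 CPM in Ctrl somas and 13568, 5194 and 22333 CPM in Ctrl neurites, and in MG132 cultures to 1758, 555 and 6155 CPM in somas and 6870.5, 2945 and 16124 CPM in neurites. Most of this was Mbp, a myelin mRNA known to travel into processes, and it was the one marker of the list called higher in Ctrl neurites, beside 10.2% of all genes. The 8 microglia markers summed to 586, 748 and 726 CPM in Ctrl somas and 582, 620 and 1159 CPM in Ctrl neurites, with 1 called higher (Aif1), and none of the oligodendrocyte or microglia markers was at 0 in any library. Of the 6 nuclear RNAs, 4 were lower in Ctrl neurites and 6 in MG132 neurites, against 4.65% and 6.35% of all genes, and the most abundant, Malat1, had means of 4751 ± 802 CPM in Ctrl somas and 2124 ± 929 CPM in Ctrl neurites (SD, n = 3). The part of glial RNA and of nuclear RNA in the ratios of the ribosomal protein mRNAs was not tested.

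The next comparison asked what MG132 did to these mRNAs in somas. Most of the measured levels were somewhat higher after MG132. Of the 74 genes, 14 were higher and 0 were lower (edgeR, adjusted p under 0.05), against 15.5% and 11.9% of all genes, so the share of calls, near that of all genes, is not a result about the family. The fold changes themselves were positive for 67 of 74 genes, with a median log2 fold change of 0.59 for the family and −0.07 over all genes. The family's median was lower over genes with at least 10 counts in every library, as given under the processing. The libraries of the groups did not overlap, with MG132 above, for 32 genes and, with MG132 below, for 0, against 23.2% and 22.7% of all genes.

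Among the most counted genes called in somas, Rpl8 measured 73.0, 66.6 and 64.9 CPM in Ctrl somas against 116, 117 and 110 CPM in MG132 somas (log2 fold change 0.74 ± 0.19, adjusted p = 0.00999). Rps15a measured 24.97, 24.15 and 24.02 CPM in Ctrl somas against 42.6, 38.8 and 45.4 CPM in MG132 somas (0.80 ± 0.18, adjusted p = 0.00514). In both the MG132 libraries lay well above the Ctrl libraries. Rpl22l1 measured 7.59, 8.86 and 5.62 CPM in Ctrl somas against 14.8, 20.01 and 19.2 CPM in MG132 somas (1.29 ± 0.33, adjusted p = 0.00918), while Rpl22 measured 42.4, 51.4 and 58.5 CPM and 53.5, 43.4 and 58.4 CPM (0.03 ± 0.20, adjusted p = 0.923). So the libraries separated for the paralog and overlapped for the parent gene, although the difference between the 2 genes was not tested. Rpl22l1 had 58.6% of its windows shared, against 1.42% for Rpl22. Its exons also overlap those of Gm33051, on the opposite strand, by up to 159 bases.

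The other genes called in somas were Rpl4, Rpl7a, Rpl19, Rpl24, Rpl26, Rpl27a, Rpl32, Rplp0, Rplp2, Rps19 and Rps26, with log2 fold changes from 0.50 for Rpl32 to 2.98 for Rpl24. The largest of these came from very few reads, since Rpl24 had 5, 1 and 0 counts in Ctrl somas and 21, 2 and 42 in MG132 somas (adjusted p = 0.0440). Rpl19 measured 3.59, 4.87 and 1.98 CPM in Ctrl somas against 6.65, 8.52 and 8.27 CPM in MG132 somas (1.16 ± 0.35, adjusted p = 0.0236). Among members of at least 1 CPM, the lowest fold changes belonged to Rpl36a (−0.79), Rpl35a and Rpl41 (−0.21 ± 0.24), of which none was called. A fit with a term for the replicate number (a replicate block) called 22 genes higher and 0 lower (19.0% and 17.4% of all genes), among them 13 of the 14 but not Rpl24 (adjusted p = 0.0550), and on total counts 0 were called (7.56% of all genes higher). Leaving out 1 library at a time gave 5 to 15 calls, and Rpl8, Rps15a and Rpl22l1 kept theirs each time.

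In neurites, the measured levels after MG132 lay to both sides of Ctrl. Of the 74 genes, 2 were higher and 0 were lower, against 14.7% and 12.3% of all genes. The median log2 fold change was −0.04 for the family and −0.16 over all genes, and 34 of the 74 values were positive. The libraries did not overlap for 5 genes with MG132 above and 5 with MG132 below, against 20.4% of all genes in each direction. The median rested on replicate 3 of Ctrl neurites, the library with the highest summed level (4906 CPM), and without it the median was 0.40 and 7 genes were called higher. Without a count filter the median was 0.13, and with the mitochondrial genes and 1 abundant unnamed gene left out of the scaling it was 0.06, so its sign is not settled.

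The genes called in neurites were Rpl12 and Rpl7l1. Rpl12 was counted at 0, 14 and 1 reads in Ctrl neurites and 26, 140 and 30 in MG132 neurites, or 0, 1.56 and 0.168 CPM and 5.92, 6.32 and 5.32 CPM (log2 fold change 3.09 ± 0.85, adjusted p = 0.0146). The 3 MG132 libraries were close to each other and above each Ctrl library, and the call was kept whichever library was left out. In somas Rpl12 measured 1.31, 1.77 and 0.331 CPM in Ctrl and 4.804, 7.33 and 3.73 CPM after MG132 (2.18 ± 0.79, adjusted p = 0.0516, or 0.0136 with the replicate block). Exons of Rpl12 overlap those of Lrsam1, a ubiquitin ligase gene on the opposite strand, by 53 bases, and without strand the reads there cannot be told apart. Rpl7l1 measured 21.1, 21.9 and 24.7 CPM in Ctrl neurites and 35.8, 49.0 and 37.2 CPM in MG132 neurites (0.85 ± 0.25, adjusted p = 0.0213), and its call was lost on total counts and without replicate 1 or 2 of Ctrl neurites or replicate 2 of MG132 neurites.

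With the replicate block the genes called in neurites were Rpl4, Rpl7l1, Rpl12 and Rps27l, all higher, and Rpl41, lower (17.7% and 18.1% of all genes). Rpl41, the shortest ribosomal protein, measured 75.9, 78.8 and 126 CPM in Ctrl neurites and 52.0, 70.6 and 69.7 CPM in MG132 neurites (−0.54 ± 0.23, adjusted p = 0.0964 without the block). Rps27l measured 23.3, 31.2 and 37.5 CPM in Ctrl neurites and 38.1, 61.0 and 43.1 CPM in MG132 neurites (0.63 ± 0.24, adjusted p = 0.0628 without the block). In both genes the 2 groups of libraries did not overlap.

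**Figure D4:**
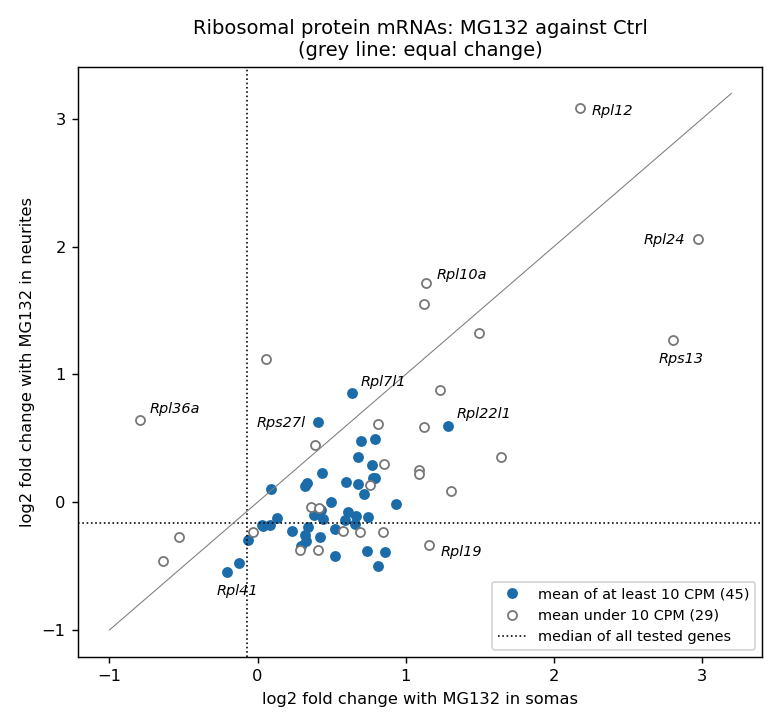
Log2 fold change with MG132 in somas (x axis) and in neurites (y axis) for the 74 tested ribosomal protein genes, filled for a mean of at least 10 CPM, with dotted lines at the median of all tested genes (−0.07 and −0.16) and a grey line for equal change. Most filled points lie right of the vertical dotted line and below the grey line, while Rpl12 and Rpl7l1, the genes called in neurites, lie above the grey line.

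The difference of the MG132 response between neurites and somas was tested as an interaction over the 4 groups. No gene of the family was called in either direction, and neither was any of all genes tested (0.0%), although with the replicate block 0.331% and 0.303% of all genes were called higher and lower in neurites and again 0 members. DESeq2 also called 0 members. The difference was negative for 63 of the 74 genes, with a median of −0.52 for the family and −0.04 over all genes. Without replicate 3 of Ctrl neurites the family's median was −0.23, and leaving out each of the 12 libraries in turn gave −0.60 to −0.23. At an unadjusted p under 0.05 it was negative for 12 genes and positive for 0, against 3.71% and 3.34% of all genes. The lowest values belonged to Rps13 (−1.53 ± 1.61), Rpl19 (−1.50 ± 0.49, adjusted p = 0.493) and Rpl27a (−1.31 ± 0.37, adjusted p = 0.449).

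Rpl27a shows the course of such a gene, with 7.38, 4.32 and 5.51 CPM in Ctrl somas, 27.8, 22.3 and 23.7 CPM in Ctrl neurites, 12.3, 9.71 and 8.52 CPM in MG132 somas and 16.9, 17.5 and 17.7 CPM in MG132 neurites. Its MG132 libraries lay above Ctrl in somas and below Ctrl in neurites, without overlap in either. Rpl26 had a difference of −1.12 ± 0.32 (adjusted p = 0.449) and Rpl8 one of −0.86 ± 0.27 (adjusted p = 0.478). Of the 4 tested paralogs, 3 had positive differences, from 3 of 29 genes in the 40S subunit and 5 of 41 in the 60S subunit, but these differences all missed the threshold. The 4 comparisons share libraries in pairs, so that a high value in Ctrl neurites raises the neurite ratio and lowers the MG132 response in neurites alike.

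The subunits stayed in similar proportion in all libraries. The summed level of 40S genes was 0.736 to 0.922 of that of 60S genes. In Ctrl neurites the ratio was 0.922, 0.892 and 0.895, in Ctrl somas 0.837, 0.769 and 0.883, in MG132 somas 0.736, 0.736 and 0.798, and in MG132 neurites 0.795, 0.852 and 0.884. Ctrl neurites lay above the other groups and MG132 somas low, with MG132 somas and Ctrl somas overlapping. Between libraries of the same replicate number, MG132 was lower than Ctrl in 3 of 3 pairs of somas and 3 of 3 pairs of neurites, and somas were lower than neurites in 3 of 3 pairs in each treatment, although 3 pairs cannot give a two-sided exact p under 0.25.

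Genes listed beside the family showed how far its pattern was shared. The other TOP mRNAs, 15 genes of elongation and initiation factors and their like, had 13 higher and 0 lower in Ctrl neurites (median 1.38) and 10 higher and 0 lower in MG132 neurites (median 1.19), against 10.2% and 11.4% of all genes called higher. With MG132, 9 were higher in somas (median 0.70), against 15.5% of all genes, and 2 in neurites (median 0.23), a share near the 14.7% of all genes, or 4 in neurites with the replicate block (17.7% of all genes). Eef1b2, a nucleotide exchange factor of elongation, measured 47.6, 44.2 and 44.96 CPM in Ctrl somas and 201, 188 and 280 CPM in Ctrl neurites (log2 ratio 2.29, adjusted p = 5.9e-06). Pabpc1, the poly(A)-binding protein, had means of 139 ± 21.1 CPM in Ctrl somas, 654 ± 227 CPM in Ctrl neurites, 271 ± 34.5 CPM in MG132 somas and 912 ± 161 CPM in MG132 neurites (SD, n = 3).

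Among 4 genes of proteins made as fusions, bound to the ribosome or closely related to a member, Rack1 was the one called. Rack1, a scaffold on the 40S head, measured 20.6, 12.52 and 20.7 CPM in Ctrl somas, 38.6, 42.4 and 73.4 CPM in Ctrl neurites, 41.8, 45.6 and 36.2 CPM in MG132 somas and 65.2, 70.0 and 67.6 CPM in MG132 neurites. It was higher in Ctrl neurites than in Ctrl somas (1.52) and rose with MG132 in somas (1.19, adjusted p = 0.00325), where 10.2% and 15.5% of all genes were called higher. Fau and Rps27a, whose proteins are made as fusions to ubiquitin or a ubiquitin-like protein, and Rpl36al, a close relative of Rpl36a, were not called in any of the 5 comparisons. With the replicate block, 2 of these 4 genes, Rack1 and Rpl36al, were higher in neurites than in somas, both in Ctrl and in MG132 neurons, against 13.7% and 15.1% of all genes.

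Of the 76 mitochondrial ribosomal protein genes tested, 7 were higher and 0 lower in Ctrl neurites (median 0.41) and 13 and 0 after MG132 (median 0.47), against 10.2% and 11.4% of all genes called higher. With MG132 they had 7 higher and 2 lower in somas and 15 higher and 1 lower in neurites (medians 0.11 and 0.32), against 15.5% and 14.7% of all genes called higher and 11.9% and 12.3% called lower. The 7 calls in Ctrl neurites are a share near that of all genes, and not a result about this list. The shares called in Ctrl neurites were 7 of 76 for the mitochondrial set and 52 of 74 for the cytoplasmic set, although the 2 lists were not tested against each other.

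More of the factors that build ribosomes were called with MG132 than between the fractions. Of 76 biogenesis factors, 57 were higher and 1 lower in MG132 somas (median 1.20) and 55 higher and 1 lower in MG132 neurites (median 1.42), against 15.5% and 14.7% of all genes called higher. Between the fractions, 10 and 1 were called in Ctrl neurites (median 0.23), a share near the 10.2% of all genes called higher, and 22 and 1 in MG132 neurites (median 0.42), against 11.4%. Riok2, a kinase of late 40S assembly, rose in somas from 13.0, 16.3 and 14.5 CPM to 63.7, 58.8 and 57.6 CPM (2.04, adjusted p = 4.95e-06). Noc3l, a factor of early 60S assembly, rose in neurites from 19.0, 13.7 and 21.3 CPM to 90.9, 99.3 and 87.4 CPM (2.37, adjusted p = 2.4e-06). The nucleolar proteins Ncl and Npm1 were higher in neurites in both treatments (log2 ratios of 1.54 and 1.55 in Ctrl neurons, and 2.13 for Ncl after MG132), with Ncl at 282 ± 19.7 CPM in Ctrl somas, 821 ± 150 CPM in Ctrl neurites, 501 ± 35.9 CPM in MG132 somas and 2192 ± 184 CPM in MG132 neurites (SD, n = 3).

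Other lists of the same machinery also held genes that rose with MG132, beside 15.5% of all genes called higher in somas and 14.7% in neurites. RNA polymerase I and its factors, which transcribe ribosomal RNA, had 5 of 12 higher in somas and 5 of 12 in neurites (medians 0.92 and 0.95), among them Taf1d (2.40 and 2.47), Taf1a (1.73 and 1.93) and Rrn3 (1.18 and 1.25). The chaperones and importins of ribosomal proteins had 6 and 8 of 12 higher, with the importin Ipo7 at 1.53 and 1.83, and 3 of 12 called higher in neurites than in somas in either treatment, against 10.2% and 11.4% of all genes (6 and 6 with the replicate block, against 13.7% and 15.1%). Regulators of TOP mRNAs had 12 higher and 0 lower of 19 in somas and 10 and 1 in neurites. Among them were Larp1, which binds the TOP tract (1.53 in somas, adjusted p = 1.6e-05), and Sesn2, an inhibitor of mTORC1 signalling (3.33 in somas, adjusted p = 6.7e-07). Factors of ribosome quality control and of disposal of orphan ribosomal proteins had 12 higher and 1 lower of 18 in somas and 11 and 0 in neurites, with Ascc3, a helicase that splits stalled ribosomes, at 1.55 and 1.76.

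**Figure D5:**
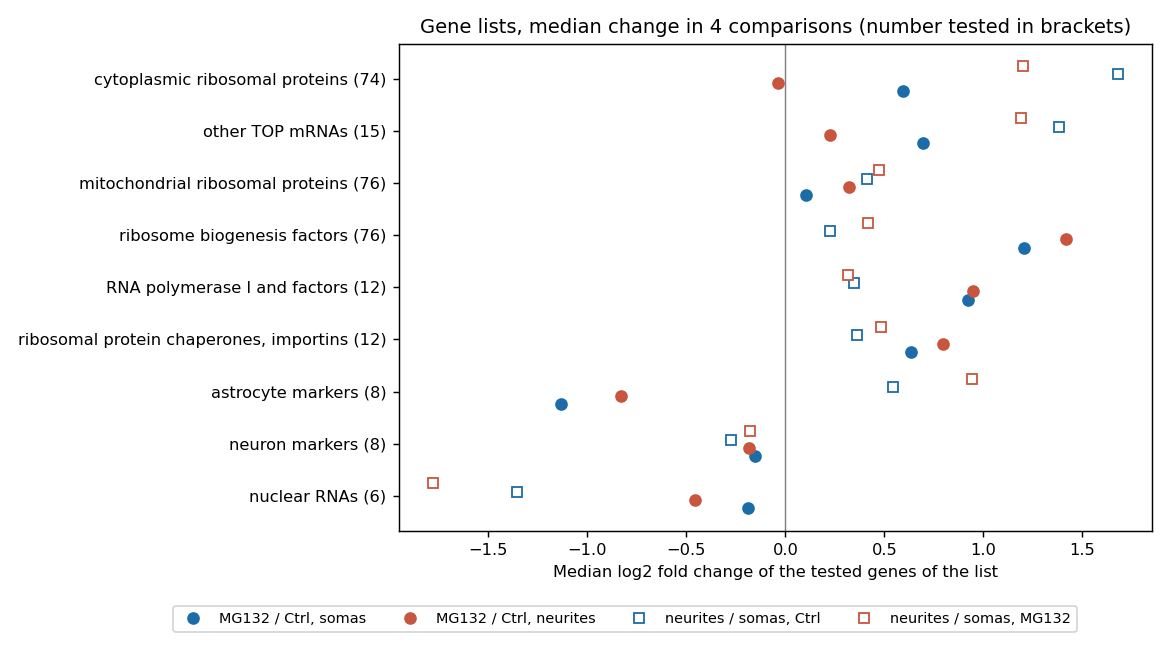
Median log2 fold change of the tested genes of 9 lists (rows) in 4 comparisons, filled circles for MG132 against Ctrl and open squares for neurites against somas, with somas or Ctrl in blue and neurites or MG132 in red. Cytoplasmic ribosomal protein genes (1.68 and 1.20) and other TOP mRNAs (1.38 and 1.19) have the highest neurite medians of the lists drawn, while biogenesis factors have the highest MG132 medians (1.20 and 1.42).

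Some markers of non-neuronal cells were called lower with MG132, beside 11.9% of all genes called lower in somas and 12.3% in neurites. Of 8 astrocyte markers, 6 were lower in somas and 3 in neurites, and of 9 oligodendrocyte lineage markers 4 and 4. Of 8 microglia markers, 3 were lower in somas and 7 in neurites, with their summed level at 158, 301 and 196 CPM in MG132 somas and 90.9, 176 and 227 CPM in MG132 neurites. The 7 fibroblast and vessel markers, with Col1a1 the most abundant, summed to 171, 166 and 141 CPM in Ctrl somas against 52.3, 42.4 and 39.6 CPM in MG132 somas, and up to 3 of them were at 0 in a library. In neurites they summed to 71.9, 47.3 and 30.4 CPM in Ctrl and 19.4, 29.3 and 18.6 CPM after MG132. Of the 8 neuron markers none was called in somas, and in neurites Nefm, a neurofilament subunit, was higher (1.30, adjusted p = 0.0130) and Stmn2, a regulator of microtubules, lower (−1.01, adjusted p = 0.00612). With the replicate block the counts of lower markers in somas and neurites were 8 and 6 of 8 for astrocytes, 8 and 9 of 9 for the oligodendrocyte lineage, 8 and 8 of 8 for microglia, and 2 and 3 of 8 for neurons, against 17.4% and 18.1% of all genes. Higher neuron markers with the block numbered 0 in somas and 1 in neurites. The part of these cells in the MG132 changes of the ribosomal protein mRNAs was not tested.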

How the data were processed

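The authors trimmed reads with Trimmomatic 0.38.0 (quality under 20 in windows of 4 bases), aligned them as single ends to mm10 with STAR at default parameters, and counted reads per Entrez gene with featureCounts 2.0.1 at default parameters. The submitters' processing notes also name DESeq2 2.11.40.7. The deposited values are raw counts per gene, 1 table per library, with 4247610 to 22166347 counts each. None of the 66 pairs of libraries held identical values.

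Entrez identifiers were matched to RefSeq symbols, which named 25275 of 27179 genes (93.0%). Counts were fitted with edgeR 4.0.16 (R 4.3.3): filterByExpr by group, TMM factors, 4 group means over all 12 libraries, glmQLFit and glmQLFTest, with p adjusted over all 14185 genes tested and calls at 0.05 without a minimum fold. The standard errors of log2 ratios were derived from the same fit, as the size of the ratio over the square root of its quasi-likelihood F. The windows of 75 bases were compared between GENCODE M21 transcripts. A member's length is that of its longest protein-coding transcript, with transcripts matched to a RefSeq mRNA taken before those without such a match. DESeq2 1.42.0, other scalings and filters, and leaving out each library served as alternatives.

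Libraries with the same replicate number deviated together from their group means (correlations over genes of 0.0972 to 0.248, mean 0.199, and over 0.1 in every pair of the 4 comparisons between 2 groups). Correlations between different replicate numbers were not computed, so whether the numbers mark pairs was not tested. The numbers, which the labels give, entered the replicate block and the counts of same-numbered pairs. The main fit used the 4 group means without them. The members and gene lists were chosen with earlier results of these data known. Named genes were those with the 3 highest and 3 lowest fold changes of each comparison among members of at least 1 CPM, the 5 highest and 5 lowest per length, the stalk genes and Rpsa, pairs of paralogs, and at most 4 called genes of each other list, while further members were named after their values were seen. Not every gene that this rule names is described. A gene of 1 list is not reported here. No protein sequence was used here.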

Additional observations from a re-analysis of the deposited data

How the results depend on the processing

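No called direction reversed. Relative to 14 calls in MG132 somas, there were 0 on total counts, 22 with the replicate block, 3 at adjusted p under 0.01, 7 with a 1.7-fold minimum, and 5 to 15 with 1 library left out. The median there was 0.54 with DESeq2 size factors or DESeq2, 0.56 on total counts, 0.62 without a count filter, 0.35 with at least 10 counts in every library, 0.51 over members with at most 50% of their windows shared (chosen after seeing the data), and 0.48 to 0.71 with 1 library left out. In MG132 neurites the 2 calls became 1 on total counts or with at least 10 counts in every library (with 1 lower), 4 with the replicate block (with 1 lower), 0 at adjusted p under 0.01 and 1 to 7 with 1 library left out, and the median ran from −0.16 to 0.40 with 1 library left out and from −0.22 to 0.13 under the other settings. For neurites against somas, total counts gave 29 calls and a median of 1.02 in Ctrl, and 1 call and a median of 0.44 after MG132, and leaving out 1 library gave medians of 1.40 to 1.77 in Ctrl. Without the mitochondrial genes and 1 abundant unnamed gene in the total, the family's mean share was 0.224% in Ctrl somas, 0.542% in Ctrl neurites, 0.296% in MG132 somas and 0.507% in MG132 neurites. The block moved no other count of family calls by over 1.5 times. Of the single-gene values followed through the alternatives, 1402 kept their side of the threshold, 57 lost the call and 24 gained one. A change of sign in a value that was called in neither fit was not counted as a change. This tally does not cover every member under every alternative. On total counts alone, 0 of 14 calls were kept in MG132 somas and 1 of 2 in MG132 neurites. For neurites against somas, 29 of 52 were kept in Ctrl and 1 of 41 after MG132. The cause of these changes was not tested. Low counts limit the 12 members under 1 CPM, and how far depth or shared windows set their counts was not tested.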
